A study of Homo sapiens with 18 samples.

Results

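The genes described here are those encoded by the human mitochondrial genome. They were chosen by symbol, as every gene of the deposited count table whose name starts with MT-. There were 37 such genes among the 58870 genes of the table: 13 that code for proteins, 2 for ribosomal RNAs (rRNAs) and 22 for transfer RNAs (tRNAs). They were measured by RNA-seq of total RNA in 18 libraries from 3 human melanoma cell lines, WM164, SKMEL28 and A375. Each line carried a lentiviral construct, driven by the EF1α promoter and selected with blasticidin, that expressed either GFP as the control or MAFG with a Myc-DDK tag. MAFG is a small MAF transcription factor. There were 3 libraries in each of the 6 groups (WM164 GFP, WM164 MAFG, SKMEL28 GFP, SKMEL28 MAFG, A375 GFP and A375 MAFG), and all cells were grown in RPMI with serum. No source says whether the 3 libraries of a group came from separate cultures, so the p-values measure the spread between these libraries, which may be technical.

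The mitochondrial genome is a small circular DNA that is present in many copies per cell. Both of its strands are transcribed by a dedicated RNA polymerase into long precursors, and cleavage at the tRNAs that lie between most genes releases the rRNAs and messenger RNAs. Most genes are read from the heavy-strand promoters, while MT-ND6 and several tRNAs are read from the opposite direction. The 13 proteins are all subunits of the respiratory chain or of ATP synthase, where they are assembled with many nuclear-encoded subunits, and the 2 rRNAs belong to the mitochondrial ribosome. Since genes read in the same direction share precursors, levels of their single RNAs depend largely on processing and stability after transcription.

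Total counts ran from 20122172 in SKMEL28 GFP replicate 2 to 39025042 in A375 MAFG replicate 3. MAFG itself, the check on the labels, was higher in the MAFG libraries of all lines, at 50.5 ± 5.36 against 24.2 ± 2.96 CPM (counts scaled to library size) in WM164, 34.4 ± 2.01 against 24.0 ± 3.89 in SKMEL28 and 52.3 ± 9.6 against 29.9 ± 4.87 in A375 (mean ± SD, n = 3), with no overlap between constructs. Of 10 melanocyte lineage markers, 0 to 1 were under 1 CPM in every library of WM164 or SKMEL28, but 5 were in A375, where MLANA and TYR were at 0. Of 13 markers of other cell types, 10 to 11 were under 1 CPM in every library of a line. Among the rest, LUM was at 8.15 to 17.1 CPM in WM164 and 10.7 to 19.9 in SKMEL28, and PDGFRB at 7.82 to 8.92 in A375. A375 MAFG replicate 1 stood apart in its RNA types, with the lowest rRNA share and the highest sum of nuclear RNAs without a poly(A) tail (61777 CPM, against 36081 to 44389 in the other A375 libraries). WM164 GFP replicate 1 also had a high sum of these RNAs (61234 CPM, against 48095 to 51920 in the other WM164 libraries). Whether libraries were made with poly(A) selection or rRNA depletion is not stated in the sources used here.

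Mitochondrial RNA made up a large part of every library, and its share was lower with MAFG in WM164 and higher with MAFG in SKMEL28, with no overlap between the constructs in either line. In WM164 the 37 genes took 27.4%, 27.1% and 27.4% of all counts in the GFP libraries and 25.2%, 23.1% and 25.9% in the MAFG libraries. Every WM164 MAFG library was thus below every GFP library. In SKMEL28 they took 23.8%, 23.7% and 25.4% in the GFP libraries and 27.3%, 28.2% and 29.1% in the MAFG libraries, the opposite order, again without overlap. In A375 they took 13.05%, 14.4% and 15.9% with GFP and 12.6%, 14.2% and 16.2% with MAFG, and the groups covered the same range. The 95% Wilson intervals of these shares were at most 0.0186 percentage points to either side, which covers counting error only.

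The mean difference, MAFG minus GFP, was -2.58 percentage points in WM164, 3.88 in SKMEL28 and -0.12 in A375. With 3 libraries against 3, the two-sided exact permutation test can give no p under 0.1, and this was the value in WM164 and SKMEL28 (0.15 adjusted over the 3 lines). It was 0.9 in A375. The difference between the lines' responses was tested by permuting the constructs within each line, which allows 400 arrangements. Its p is exact for the case that the constructs do not differ in either line, and not for equal responses that differ from 0. The response of WM164 minus that of SKMEL28 was -6.46 percentage points (exact p = 0.005, the smallest possible, 0.015 adjusted over 3 pairs of lines). The response of SKMEL28 minus that of A375 was 4.0 points (adjusted exact p = 0.0975), and that of WM164 minus that of A375 was -2.46 points (adjusted exact p = 0.195). Nearly all of the mitochondrial counts were in the 13 protein genes, and the share of these alone changed by -2.52 points in WM164, 3.84 in SKMEL28 and 0.134 in A375. A share of counts rises in the same way when mitochondrial RNA rises and when nuclear RNA falls, and in bulk RNA fewer mitochondria and less RNA per mitochondrion cannot be told apart.

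**Figure D1:**
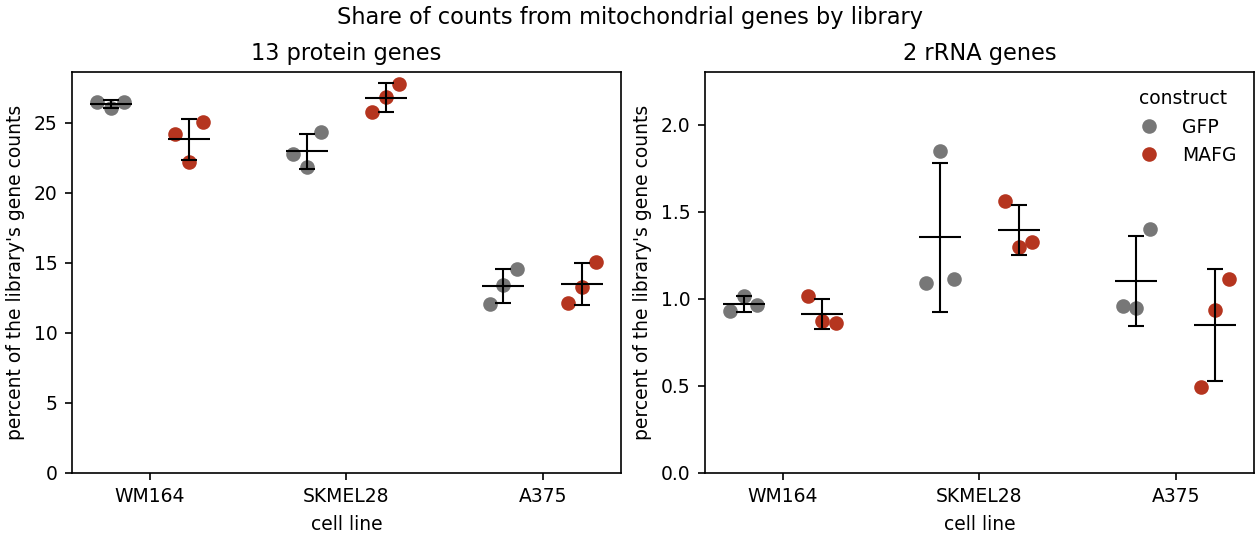
Share of each library's counts, in percent, from the 13 protein genes (left) and the 2 rRNA genes (right) of the mitochondrial genome, by cell line and construct. Points are libraries and bars are the mean and SD of 3; the protein gene share of the WM164 and SKMEL28 groups did not overlap and moved in opposite directions, while both A375 groups lay near 13.4%.

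The single genes were compared within each line with edgeR's quasi-likelihood test over all genes that passed a filter on low counts, and a gene was called where its Benjamini-Hochberg adjusted p did not exceed 0.05. All 13 protein genes and both rRNAs passed the filter in each line, together with 3 tRNAs in WM164, 3 in SKMEL28 and 1 in A375. In WM164, 8 of the 13 protein genes were lower with MAFG and 0 were higher (1 was higher at an unadjusted p under 0.05, and DESeq2 called 9 lower and 0 higher), where 15.6% of the 15919 genes tested were called lower and 16.2% higher. Their median log2 fold change was -0.26, against 0.00 over all genes. Nuclear RNAs without a poly(A) tail, a sign of the RNA types in a library, were also lower in WM164 (9 of 19 tested called lower and 0 higher, median -0.28), and their part in the mitochondrial result was not tested gene by gene. With nuclear copies of mitochondrial genes and the most abundant other nuclear genes left out of the denominator, the mitochondrial share differed by -2.61 percentage points in WM164, with separate groups. This setting alters the denominator only, so it cannot show whether both kinds of RNA fell together, which was not tested. Without WM164 GFP replicate 1, 8 protein genes were lower and 1 higher, with a median of -0.21. In SKMEL28, 11 of 13 were higher and 0 lower (0 lower at an unadjusted p under 0.05, and DESeq2 called 12 higher and 0 lower), where 14.6% of 15523 genes were higher and 15.3% lower. Their median was 0.41, against -0.01 over all genes. In A375, 0 of 13 were called in either direction (0 at an unadjusted p under 0.05, and 0 by DESeq2), where 0.780% of 15779 genes were called higher and 0.0634% lower. Their log2 fold changes there lay between -0.09 and 0.07 with standard errors of 0.08 to 0.14, and their signs were not stable (8 of 13 positive, 0 on log2(TPM + 1), and from 1 without GFP replicate 1 or MAFG replicate 3 to 12 without GFP replicate 3). None of the 37 genes changed more than 2-fold in addition to the adjusted p in any line, by edgeR or DESeq2, which 6.94% of all genes did in WM164, 4.74% in SKMEL28 and 0.665% in A375.

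Fewer genes were called from the deposited TPM, where the table, the test and the filter on low values all differed from those above. With limma on log2(TPM + 1), 0 of the 37 genes were lower in WM164 and only MT-ND1 was higher (0.31, adjusted p = 0.0432), while in SKMEL28 only MT-CYB (0.36, adjusted p = 0.016), MT-ND6 (0.30, adjusted p = 0.0142) and MT-ND5 (0.33, adjusted p = 0.0475) were higher. On that scale the median of all genes itself moved, to 0.14 in WM164, -0.14 in SKMEL28 and -0.10 in A375. Relative to that median, the protein genes' median stood at -0.23 in WM164, 0.37 in SKMEL28 and 0.02 in A375, against -0.26, 0.42 and 0.02 on counts. With all 18 libraries in 1 model, which shares their spread, 5 protein genes were called lower in WM164 and 8 higher in SKMEL28.

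**Figure D2:**
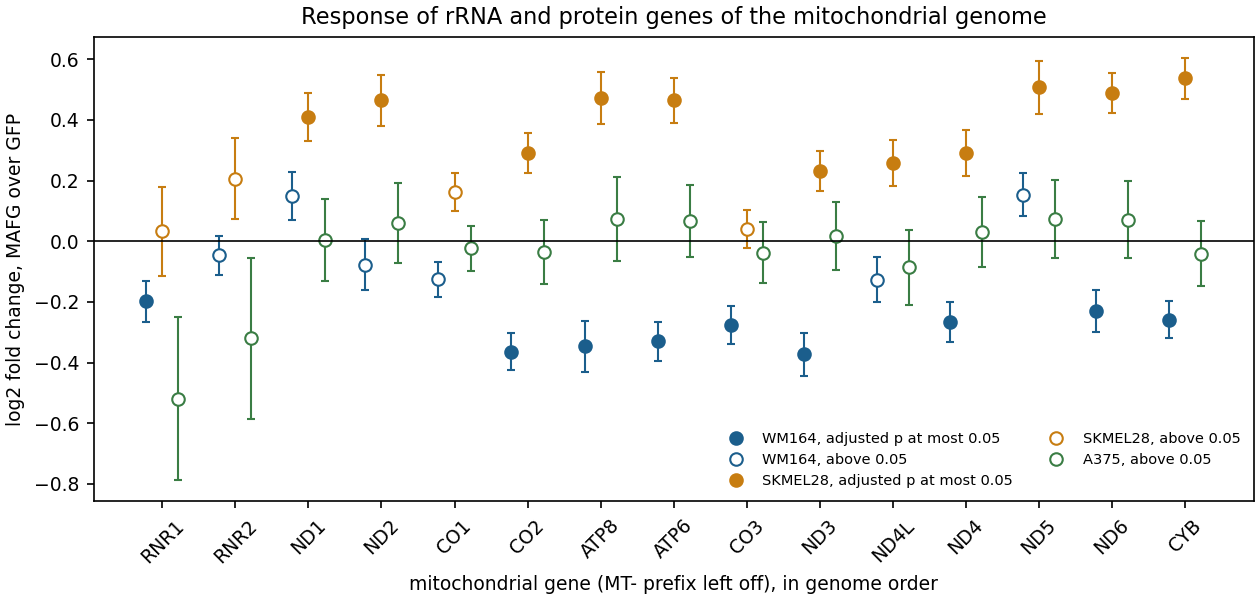
Log2 fold change of MAFG over GFP (vertical axis) for the 2 rRNA and 13 protein genes in genome order, by cell line. Points are edgeR estimates from 3 against 3 libraries with their standard errors, filled where the adjusted p was 0.05 or less; SKMEL28 values lie above 0, most WM164 protein genes below it, and A375 protein genes within 0.09 of it.

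Complex I, the NADH dehydrogenase at the entry of the respiratory chain, holds 7 of the 13 proteins. In WM164, MT-ND3, MT-ND4 and MT-ND6 fell and the other 4 were not called, whereas in SKMEL28 all 7 rose. MT-ND3, at chrM:10059-10404, had the largest fall in WM164, from 3159.9, 2594 and 2718 CPM (scaled by edgeR's normalization) in the GFP libraries to 2279.8, 2008 and 2252 in the MAFG libraries (log2 fold change -0.37 ± 0.07 SE, adjusted p = 0.00047). The groups did not overlap. In SKMEL28 it went from 2056, 1785 and 2112 to 2275, 2308 and 2409.8 (0.23 ± 0.07, adjusted p = 0.0147), again without overlap and upward.

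MT-ND5, the longest protein gene (chrM:12337-14148), rose in SKMEL28 from 21169.6, 20831 and 25799.7 to 28828, 31941 and 35572 CPM (0.51 ± 0.09, adjusted p = 0.00039). Every MAFG library was above every GFP library. In WM164 it was at 23533, 22321 and 23029.5 with GFP and at 25744, 22388 and 28432 with MAFG (0.15 ± 0.07, adjusted p = 0.115). The WM164 groups overlapped, and this was the only protein gene beside MT-ND1 with a positive estimate in that line. MT-ND1 (chrM:3307-4262) was at 15489.9, 12886 and 13739 with GFP and at 15658, 13658 and 17342 with MAFG in WM164 (0.15 ± 0.08, adjusted p = 0.176), and rose in SKMEL28 from 16859, 16579.8 and 19562 to 21411, 23103 and 25858 (0.41 ± 0.08, adjusted p = 0.000969). Without WM164 MAFG replicate 2, both MT-ND5 (0.24, adjusted p = 0.00485) and MT-ND1 (0.23, adjusted p = 0.0226) were called higher in WM164, and MT-ND1 also without WM164 GFP replicate 1 (0.22, adjusted p = 0.0392).

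MT-ND6 (chrM:14149-14673) is the only protein gene on the light strand, read in the direction opposite to the others. Its counts were the fewest of the 13. In WM164 it fell from 1460.2, 1186 and 1206 to 1137, 1054 and 1096 CPM (-0.23 ± 0.07, adjusted p = 0.017), a call that was lost without WM164 GFP replicate 1 (-0.13, adjusted p = 0.0662) or WM164 MAFG replicate 2 (-0.20, adjusted p = 0.0671). In SKMEL28 it rose from 1070.1, 1032 and 1189.7 to 1463, 1519 and 1635 (0.49 ± 0.07, adjusted p = 3.9e-05). The groups were separate in both lines. Of its neighbours on the heavy strand, MT-CYB was called in the same direction in both lines, whereas MT-ND5 was not called in WM164. The labels name a non-stranded kit and the study's methods a strand-specific one, the use of strand in counting is not given in the sources used here, and reads of MT-ND6 and of RNA from the opposite strand cannot be told apart if it was not used.

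MT-ND4 fell by 0.27 in WM164 (adjusted p = 0.00434) and rose by 0.29 in SKMEL28 (adjusted p = 0.00887) on the log2 scale. MT-ND2 was at -0.08 in WM164 (adjusted p = 0.543) and rose by 0.46 in SKMEL28 (adjusted p = 0.000556). MT-ND4L, which shares its last bases with MT-ND4, was at -0.13 in WM164 (adjusted p = 0.215) and rose by 0.26 in SKMEL28 (adjusted p = 0.0176). Leaving out SKMEL28 MAFG replicate 2 ended the calls of MT-ND3 (0.24, adjusted p = 0.0555) and MT-ND4 (0.29, adjusted p = 0.0556) in that line, and leaving out SKMEL28 MAFG replicate 3 that of MT-ND4L (0.20, adjusted p = 0.0751). MT-ND4L was called lower in WM164 without GFP replicate 1 (-0.20, adjusted p = 0.0379). In A375 the 7 genes had estimates of -0.09 to 0.07, each with an adjusted p of 0.997.

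MT-CYB (chrM:14747-15887), cytochrome b of complex III, had the largest rise of the protein genes in SKMEL28. It went from 13303, 12856 and 14803 to 18826, 19909.9 and 20705 CPM (0.54 ± 0.07, adjusted p = 1.79e-05), with a wide gap between the groups. In WM164 it fell from 18950.5, 18099.8 and 18474 to 15642, 14132 and 16638 (-0.26 ± 0.06, adjusted p = 0.0032). In A375 the libraries held 8037, 8803 and 10385 with GFP and 7885, 8816 and 9761 with MAFG (-0.04 ± 0.11, adjusted p = 0.997), and the groups overlapped.

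Complex IV, cytochrome c oxidase, takes its 3 core subunits from the mitochondrial genome, and these changed unevenly. MT-CO2 (chrM:7586-8269) fell in WM164 from 25715, 25000.3 and 26279.8 to 20399.5, 18161 and 21288 CPM (-0.36 ± 0.06, adjusted p = 0.00017) and rose in SKMEL28 from 16524, 15445 and 17948 to 19398, 20654 and 21039.7 (0.29 ± 0.07, adjusted p = 0.00338). The groups were separate in both lines. MT-CO1 (chrM:5904-7445) was not called in either line by edgeR, and was by DESeq2 in both (adjusted p = 0.0183 lower in WM164 and 0.00312 higher in SKMEL28). It was at 65719.8, 66809.9 and 65962 with GFP and 62576, 56878 and 62434 with MAFG in WM164 (-0.13 ± 0.06, adjusted p = 0.102), and at 56097, 51633 and 57912 with GFP and 60917, 62728 and 61894 with MAFG in SKMEL28 (0.16 ± 0.06, adjusted p = 0.0597), where it was called without GFP replicate 3 (0.20, adjusted p = 0.0207).

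MT-CO3 (chrM:9207-9990) fell in WM164 from 18576, 16225 and 16398 to 14337, 13339 and 14609.8 CPM (-0.28 ± 0.06, adjusted p = 0.00217). In SKMEL28 it was at 12002, 10709.8 and 11928 with GFP and at 11727, 11948 and 11959 with MAFG (0.04 ± 0.06, adjusted p = 0.671), and it was the only protein gene whose groups overlapped in that line. Without regard to calls, the groups of 9 of 13 protein genes did not overlap in WM164, 12 of 13 in SKMEL28 and 0 of 13 in A375, against 43.4%, 43.0% and 12.8% of all genes tested in these lines.

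MT-ATP8 (chrM:8366-8572) and MT-ATP6 (chrM:8527-9207) encode 2 membrane subunits of ATP synthase and are carried on a shared messenger RNA in which the reading frames overlap. In WM164, MT-ATP6 fell from 22186, 20046 and 21048 to 17094, 15306 and 17939 CPM (-0.33 ± 0.06, adjusted p = 0.000594), and MT-ATP8 fell by 0.35 (adjusted p = 0.00393). In SKMEL28, MT-ATP6 rose from 12011, 11436 and 12888 to 15006, 16626 and 18486 (0.46 ± 0.08, adjusted p = 0.000223), and MT-ATP8 rose by 0.47 (adjusted p = 0.000584). The groups were separate in both lines, and the estimates of the 2 genes were within 0.02 of each other in each of the 3 lines. The sequence below is shown because it holds the shared bases, from which a read cannot be given to either gene alone. It is from the reference (hg38, plus strand, chrM:8507-8592), with the 46 bases of both genes (chrM:8527-8572) in capitals. For the other overlapping pair, MT-ND4L and MT-ND4, the window is chrM:10735-10791 with the 7 shared bases (chrM:10760-10766) in capitals.
MT-ATP8/MT-ATP6: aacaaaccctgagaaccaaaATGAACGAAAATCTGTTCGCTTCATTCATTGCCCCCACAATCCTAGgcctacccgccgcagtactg
MT-ND4L/MT-ND4: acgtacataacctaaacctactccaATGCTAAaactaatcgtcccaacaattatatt

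The nuclear genome holds many old copies of mitochondrial DNA, and some took reads here. Of 407 such pseudogenes by symbol, 3 had more than 1000 counts in any library, and these held 99.3% of all counts given to copies. MTATP6P1, on chromosome 1, had 16.1% to 24.4% of the counts of MT-ATP6, whereas MTND2P28 had 2.65% to 3.70% of those of MT-ND2, and MTCO1P12 at most 0.0561% of those of MT-CO1. In the reference, 671 of the 681 bases of MTATP6P1 are identical to MT-ATP6. The 61 bases below are shown as an example of how few letters separate them. They are the plus strands of chrM:8830-8890 and chr1:633999-634059 (hg38), with the base that differs in capitals.
MT-ATP6: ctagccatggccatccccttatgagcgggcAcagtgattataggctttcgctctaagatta
MTATP6P1: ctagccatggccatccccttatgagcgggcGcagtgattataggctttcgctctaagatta

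The percentage of MTATP6P1 counts relative to MT-ATP6 was 22.7 ± 0.752 with GFP and 22.8 ± 0.946 with MAFG in WM164, 23.1 ± 1.08 and 21.0 ± 0.565 in SKMEL28, and 17.5 ± 0.996 and 16.7 ± 0.842 in A375 (mean ± SD, n = 3). How many of these counts belong to either locus was not tested. With the counts of the copy added to MT-ATP6, an alternative chosen after seeing the data, its log2 fold change was -0.33 in WM164 (adjusted p = 0.000529), 0.44 in SKMEL28 (adjusted p = 0.000399) and 0.06 in A375 (adjusted p = 0.997).

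The rRNA genes MT-RNR1 (chrM:648-1601), of the small ribosomal subunit, and MT-RNR2 (chrM:1671-3229), of the large subunit, held only 0.494% to 1.85% of the counts. Across the libraries this was 3.43% to 9.63% of the counts of the protein genes. Relative to its mean, the rRNA share varied more within the SKMEL28 GFP and A375 groups than the protein gene share did. The contrast was smaller in WM164 MAFG, at 0.914% ± 0.0855 for the rRNAs and 23.8% ± 1.46 for the protein genes (mean ± SD, n = 3). In SKMEL28 GFP the rRNA share was 1.09%, 1.85% and 1.11%, in A375 GFP 0.958%, 0.946% and 1.40%, and in A375 MAFG 0.494%, 0.936% and 1.11%. Thus 1 library of each of these groups stood apart. MT-RNR1 fell in WM164, from 3817, 3954 and 3743 to 3773, 3169 and 3096 CPM (-0.20 ± 0.07, adjusted p = 0.0307), although the groups overlapped and the call was lost without GFP replicate 2, MAFG replicate 2 or MAFG replicate 3 (adjusted p = 0.0759, 0.115 and 0.119). MT-RNR2 was not called there (-0.05 ± 0.06, adjusted p = 0.638).

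In SKMEL28 the rRNAs were at 0.03 ± 0.15 (MT-RNR1, adjusted p = 0.898) and 0.21 ± 0.13 (MT-RNR2, adjusted p = 0.274). Without SKMEL28 GFP replicate 2, the library of lowest depth and highest rRNA share, both were called higher there (0.33, adjusted p = 0.00405, and 0.46, adjusted p = 5.97e-05), and MT-RNR2 was also called with no filter on low counts (adjusted p = 0.00766). In A375 they were at -0.52 ± 0.27 (MT-RNR1, adjusted p = 0.898) and -0.32 ± 0.27 (MT-RNR2, adjusted p = 0.997), and MT-RNR1 was called lower only when no filter on low counts was used (adjusted p = 5.14e-05). Without A375 MAFG replicate 1, the library with the lowest rRNA share, the A375 estimates were -0.28 and -0.03, and without A375 GFP replicate 3 they were -0.16 and -0.13. The ratio of MT-RNR2 to MT-RNR1 counts was 1.54 ± 0.0429 with GFP and 1.72 ± 0.0835 with MAFG in WM164, and 2.50 ± 0.126 and 2.81 ± 0.168 in SKMEL28. It was 2.61 ± 0.395 and 2.82 ± 0.356 in A375, with overlap between the constructs only in that line. The exact permutation p was 0.1 in WM164 and SKMEL28, the smallest possible (0.15 adjusted over the 3 lines). Mature rRNAs carry at most a short tail, and whether poly(A) selection or rRNA depletion was used is not stated. The counts therefore need not follow the level of these rRNAs in the cells.

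The 22 tRNA genes, of 59 to 75 bases, were almost without counts. Their sum was 51 to 205 counts in a library, 8 of the 22 were at 0 in all 18 libraries, and no tRNA other than MT-TM exceeded 31 counts in any library. MT-TM, the methionine tRNA between MT-TQ and MT-ND2, held 1512 of the 2095 tRNA counts (72.2%) and was counted in all 18 libraries, between 39 and 150 times. Its sequence is shown because it is the member that departs most from the other tRNAs; it is at chrM:4402-4469 (hg38, plus strand) in capitals, with 15 bases on either side.
MT-TM: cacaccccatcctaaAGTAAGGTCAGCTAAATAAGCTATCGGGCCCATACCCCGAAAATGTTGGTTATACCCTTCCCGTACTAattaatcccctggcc

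As MT-TM ends where MT-ND2 begins, a read that spans both covers 2 genes. Of the 22 tRNA genes, 18 touch or overlap another gene on at least 1 side and 7 on both, and the genes are shorter than most reads. MT-TM did not differ between constructs in a way the test could call (-0.06 ± 0.22 in WM164, adjusted p = 0.866; -0.35 ± 0.26 in SKMEL28, adjusted p = 0.344; 0.26 ± 0.38 in A375, adjusted p = 0.997). MT-TV, the valine tRNA between the rRNAs, had 9 to 21 counts in the WM164 GFP libraries and 12 to 31 in the WM164 MAFG libraries, but 0 to 7 in the 6 SKMEL28 libraries and 0 to 3 in the 6 A375 libraries. The 3 tRNAs tested in SKMEL28 had estimates of -0.36 to 1.47, and none was called. MT-TA had 1 to 9 counts with GFP and 14 to 19 with MAFG in SKMEL28. It had 4 to 8 and 8 to 9 in WM164, and 3 to 10 and 5 to 21 in A375. These counts say nothing of mature tRNAs, which are too short, too folded and too modified for this kind of library.

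The balance among the 13 protein genes was tested by scaling each library to the sum of these genes in place of all genes. A gene is then called only if it moved relative to that sum. The sum includes the gene itself and is weighted to the abundant genes, so a fall of 1 of these raises the others on this scale. In WM164, MT-ND5 and MT-ND1 gained and MT-CO2 and MT-ND3 lost. MT-ND5 went from 8.64% ± 0.03 to 10.8% ± 0.39 of the 13 genes' counts (0.31 ± 0.07 on the log2 scale, adjusted p = 4.25e-05), and MT-ND1 from 5.28% ± 0.35 to 6.55% ± 0.24 (0.31 ± 0.07, adjusted p = 0.000122). MT-CO2 went from 9.67% ± 0.24 to 8.42% ± 0.05 (-0.20 ± 0.07, adjusted p = 0.0172) and MT-ND3 from 1.06% ± 0.08 to 0.922% ± 0.03 (-0.20 ± 0.08, adjusted p = 0.0491). Without GFP replicate 3 or MAFG replicate 3 neither MT-CO2 nor MT-ND3 was called, and without GFP replicate 1 or MAFG replicate 1 only MT-CO2 was. MT-ND3 was also lost without GFP replicate 2 (adjusted p = 0.0594). Of all genes tested on this scale 23.9% were called higher and 5.62% lower.

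In SKMEL28, MT-CYB, MT-ND5 and MT-ND2 gained and MT-CO3 and MT-CO1 lost. MT-CYB went from 6.17% ± 0.09 to 7.11% ± 0.11 (0.21 ± 0.05, adjusted p = 0.00256), MT-ND5 from 10.2% ± 0.51 to 11.5% ± 0.49 (0.18 ± 0.05, adjusted p = 0.00962) and MT-ND2 from 9.85% ± 0.31 to 10.8% ± 0.45 (0.13 ± 0.05, adjusted p = 0.0381). MT-CO3 went from 5.22% ± 0.27 to 4.27% ± 0.22 (-0.29 ± 0.06, adjusted p = 0.00048), and MT-CO1 from 24.96% ± 0.85 to 22.2% ± 1.22 (-0.17 ± 0.05, adjusted p = 0.00753). Without GFP replicate 1 or MAFG replicate 2, MT-CYB was the only gene that gained by the test, and MT-ND2 was also lost without GFP replicate 2 or MAFG replicate 3 (adjusted p = 0.0513 and 0.114). Of all genes 2.63% were called higher and 41.3% lower on this scale. MT-ND5 was the only gene called in the same direction in both lines.

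In A375, 0 of the 13 genes were called on this scale (0 at an unadjusted p under 0.05), against 1.16% of all genes higher and 0.127% lower. By complex, the 7 complex I genes went from 40.9% ± 0.437 to 43.5% ± 1.24 of the 13 genes' counts in WM164, from 48.3% ± 1.20 to 50.5% ± 1.34 in SKMEL28 and from 54.9% ± 0.663 to 55.6% ± 2.32 in A375 (two-sided exact permutation p = 0.1, 0.2 and 0.8, with 0.3, 0.3 and 0.8 after adjustment over the lines). The 3 complex IV genes went from 37.7% ± 1.18 to 33.8% ± 1.61 in SKMEL28, with separate groups (exact permutation p = 0.1, 0.3 adjusted), and from 41.0% ± 0.835 to 40.0% ± 1.25 in WM164, with overlap (exact permutation p = 0.5, 0.7 adjusted). The 2 ATP synthase genes went from 11.1% ± 0.518 to 9.92% ± 0.0508 in WM164 and from 7.84% ± 0.0512 to 8.59% ± 0.385 in SKMEL28. MT-CYB, the only complex III gene, went from 6.97% ± 0.0463 to 6.53% ± 0.0448 in WM164 and rose in SKMEL28 as given above. For both complexes the groups were separate in these lines (exact permutation p = 0.1, 0.15 adjusted) and overlapped in A375.

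**Figure D3:**
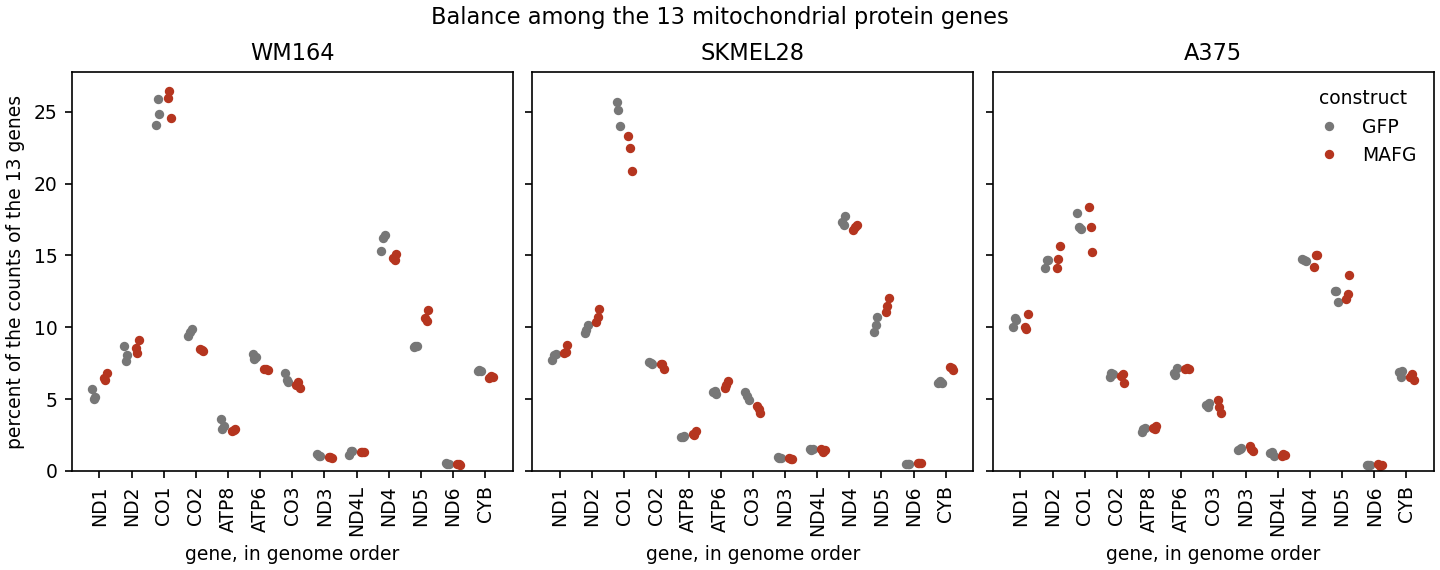
Percent of the counts of the 13 mitochondrial protein genes (vertical axis) taken by each gene in each library, for the 3 cell lines and both constructs. MT-CO1 leads in WM164 and SKMEL28, where it takes 22.2% to 25.6% on average, and is closer to MT-ND2, MT-ND4 and MT-ND5 in A375.

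The responses were then compared between the lines, in a model of all 18 libraries. WM164 and SKMEL28 differed for 9 of the 13 protein genes, all with a lower log2 fold change in WM164, where 13.7% of the 18767 genes tested were called in either direction. The differences called ran from -0.29 for MT-CO1 (adjusted p = 0.0444) to -0.82 for MT-ATP8 (adjusted p = 0.00397) and included MT-CYB (-0.79 ± 0.12, adjusted p = 0.000133), MT-ATP6 (-0.79 ± 0.14, adjusted p = 0.000581), MT-ND6 (-0.71 ± 0.15, adjusted p = 0.00238) and MT-CO2 (-0.65 ± 0.12, adjusted p = 0.00101). MT-ND1, MT-ND4L, MT-ND5 and MT-CO3 had differences of -0.26 to -0.38 that were not called. Between SKMEL28 and A375, MT-CYB alone was called (0.58 ± 0.12, adjusted p = 0.00426) against 9.51% of all genes, although 9 protein genes had an unadjusted p under 0.05. Between WM164 and A375, 0 of 13 were called by edgeR and 0 by DESeq2, against 9.21% of all genes, and 5 had an unadjusted p under 0.05.

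Scaled to the sum of the 13 genes, a comparison added after seeing the data, MT-CYB (-0.30 ± 0.10, adjusted p = 0.0389) and MT-ATP6 (-0.29 ± 0.11, adjusted p = 0.0454) still differed between the responses of WM164 and SKMEL28, against 23.9% of all genes. The rRNAs were called in none of these comparisons between responses.

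The levels of the 13 RNAs differed widely, also among the 12 that are read from the heavy-strand promoters. By raw counts MT-CO1 was first in 17 of the 18 libraries, with 2.17% to 6.75% of a library's counts, and MT-ND2 was first in the other. Divided by gene length (CPM per kilobase of gene), the highest of the 12 heavy-strand genes was 3.26 to 6.49 times the lowest within a library, MT-ND3 and MT-ND4L took the lowest places among them, and MT-CO1, MT-ND2 or MT-ATP8 came first. MT-ND6 was last in all 18 libraries on this scale, with the median heavy-strand gene at 7.97 to 14.99 times its level. In GFP cells MT-ND6 was at 2422 ± 239.7 in WM164, 2166 ± 105 in SKMEL28 and 1005 ± 90.9 in A375 (mean ± SD, n = 3), against 42571 ± 1208, 37125 ± 1329 and 14920.4 ± 898 for MT-CO1.

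The deposited TPM values, which the authors estimated with their own length correction, gave another order for the short genes. MT-ATP8, of 207 bases, was first of the 13 in all 18 libraries by TPM, at 4.73 to 6.62 times MT-ATP6, whereas per length from the counts it was 1.23 to 1.502 times MT-ATP6. MT-ND4 was 2.38 to 3.08 times MT-ND4L, of 297 bases, per length from the counts, but 0.982 to 1.19 times by TPM. The order of these short genes thus differed between the deposited tables, and the cause was not tested. The share of the 37 genes was 16.3% to 42.7% of TPM against 12.6% to 29.1% of counts.

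**Figure D4:**
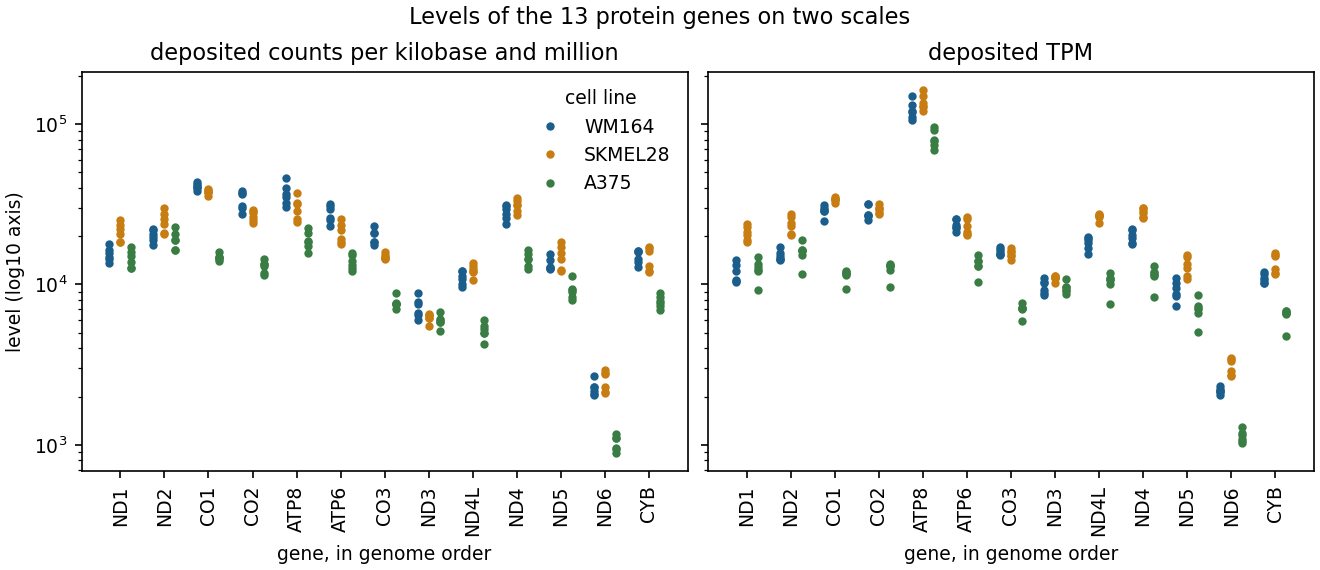
Level of each of the 13 protein genes in the 18 libraries, on log10 axes, as CPM per kilobase (left) and as deposited TPM (right), colored by cell line. MT-ND6 is lowest on both scales, and MT-ATP8 rises to the first place in every library by TPM.

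The lines also differed in the GFP cells alone. In these groups of the 18-library model, 9 of the 13 protein genes were called lower in A375 than in WM164 and by more than 2-fold, where 26.0% of all genes were. These were MT-CO1, MT-CO2, MT-CO3, MT-ATP6, MT-ATP8, MT-CYB, MT-ND4, MT-ND4L and MT-ND6. The log2 ratios of the complex IV genes were -1.76 ± 0.07 (MT-CO1, adjusted p = 2.66e-15), -1.75 ± 0.09 (MT-CO2, adjusted p = 2.86e-13) and -1.71 ± 0.09 (MT-CO3, adjusted p = 2.02e-13). In contrast, MT-ND1 was at -0.24 ± 0.12 (adjusted p = 0.0749) and MT-ND2 at -0.39 ± 0.12 (adjusted p = 0.00783).

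Against SKMEL28, 6 protein genes were lower in A375 by more than 2-fold (MT-CO1, MT-CO2, MT-CO3, MT-ND4, MT-ND4L and MT-ND6), where 24.4% of all genes were, and MT-ND3 was at -0.17 ± 0.10 (adjusted p = 0.127). Between SKMEL28 and WM164, 0 protein genes were lower by more than 2-fold with edgeR and 0 with DESeq2, where 15.2% of all genes were, although 7 were lower at any fold (8 with an unadjusted p under 0.05). MT-ATP6 was the farthest at -0.82 ± 0.10 (adjusted p = 5.77e-07), and MT-ND1 was higher in SKMEL28 (0.32 ± 0.12, adjusted p = 0.0294). MT-RNR2 was not called between A375 and WM164 (0.18 ± 0.22, adjusted p = 0.461), and was higher in SKMEL28 than in WM164 (0.63 ± 0.22, adjusted p = 0.0172). MT-TV was at 0 in the 3 A375 GFP libraries.

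The balance among the genes followed the line as well. MT-ND1 and MT-ND2 together took 13.4% ± 0.890 of the 13 genes' counts in WM164 GFP, 17.8% ± 0.505 in SKMEL28 GFP and 24.9% ± 0.655 in A375 GFP. These are neighbours on the genome and the first protein genes after the rRNAs. Scaled to the sum of the 13, a comparison between lines that was added after seeing the data, MT-ND1 was 0.98 ± 0.08 higher in A375 than in WM164 (adjusted p = 1.62e-11) and MT-ND2 0.83 ± 0.08 (adjusted p = 3.53e-10), on the log2 scale. MT-CO1 was lower by the same measure (-0.53 ± 0.08, adjusted p = 9.09e-07). In all, 9 of 13 genes were called between A375 and WM164, 11 between A375 and SKMEL28 and 9 between SKMEL28 and WM164, against 76.4%, 73.0% and 54.4% of all genes, which a scale set by the mitochondrial genes themselves moves as a whole.

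**Figure D5:**
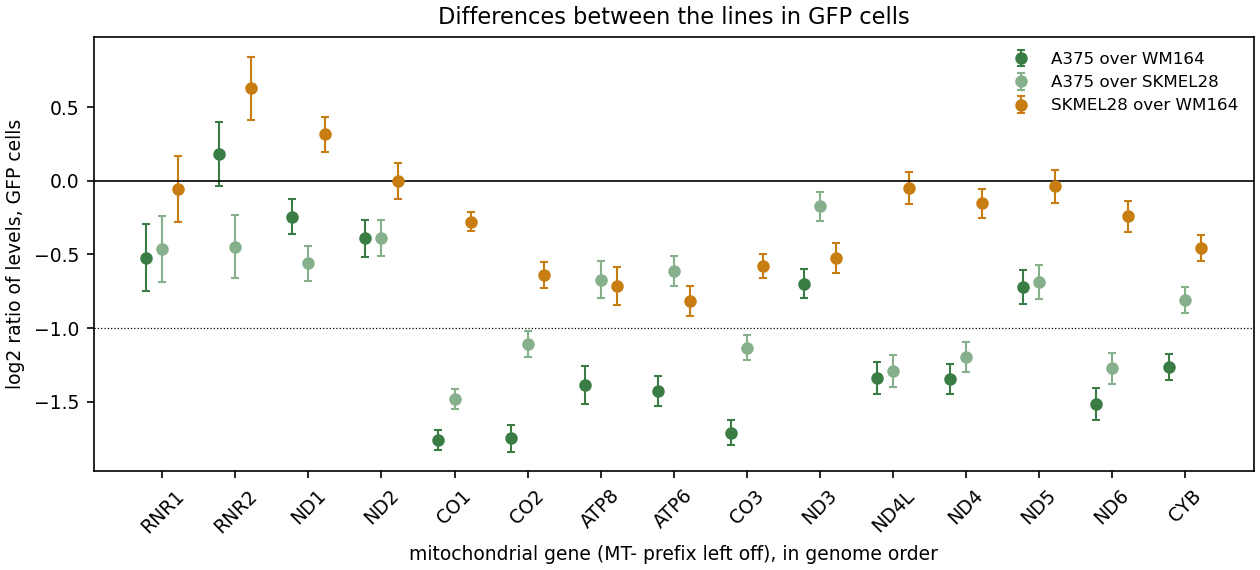
Log2 ratio of levels between the GFP groups of 2 lines (vertical axis) for the rRNA and protein genes in genome order. Points are edgeR estimates with standard errors and the dotted line marks a 2-fold lower level; the complex IV genes lie lowest for A375 over WM164, between -1.76 and -1.71, and MT-ND1 (-0.24) and MT-ND2 (-0.39) lie nearest to 0 among the protein genes.

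Nuclear genes that make, process or partner these RNAs were described from lists. The counts below stand against 16.2% of all genes called higher and 15.6% lower in WM164, 14.6% and 15.3% in SKMEL28, and 0.780% and 0.0634% in A375, and several lie near these shares. Of 17 genes for transcription and replication of mitochondrial DNA, 2 were lower and 0 higher in WM164, 4 higher and 3 lower in SKMEL28, and 0 called in A375. In SKMEL28 the mitochondrial RNA polymerase POLRMT fell from 30.2 ± 0.961 to 21.8 ± 0.977 CPM (log2 -0.47 ± 0.08, adjusted p = 0.000327), while TFAM, which packages mitochondrial DNA and activates its transcription, rose from 39.2 ± 1.40 to 48.3 ± 2.53 (0.30 ± 0.07, adjusted p = 0.00352) and the single-strand binding protein SSBP1 rose by 0.37 (adjusted p = 0.000369). In WM164, TFAM (-0.06, adjusted p = 0.567) and POLRMT (-0.05, adjusted p = 0.647) were not called, whereas the mitochondrial topoisomerase TOP1MT fell by 0.32 (adjusted p = 0.000711) and the DNA polymerase POLG by 0.20 (adjusted p = 0.0485). In A375, TFAM was at -0.15 and POLRMT at -0.13 (both adjusted p = 0.997).

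Of 23 genes tested for processing and stability of mitochondrial RNA, 5 were higher and 1 lower in WM164, 4 higher and 3 lower in SKMEL28, and 0 called in A375. LRPPRC, which stabilizes mitochondrial messenger RNAs together with SLIRP, was at -0.11 in WM164 (adjusted p = 0.111), -0.06 in SKMEL28 (adjusted p = 0.554) and -0.13 in A375 (adjusted p = 0.997). SLIRP rose by 0.21 in WM164 (adjusted p = 0.0458) and by 0.28 in SKMEL28 (adjusted p = 0.0287), and was at 0.04 in A375 (adjusted p = 0.997). TBRG4, a FASTK family protein that acts on mitochondrial messenger RNAs, fell by 0.49 in WM164 (adjusted p = 6.13e-05), where the RNA helicase DHX30 rose by 0.30 (adjusted p = 0.00219). In SKMEL28, TRMT10C, a subunit of mitochondrial RNase P, rose by 0.37 (adjusted p = 0.00323), and PTCD3, a protein of the mitochondrial ribosome, fell by 0.22 (adjusted p = 0.0084).

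Among regulators of mitochondrial biogenesis, 0 of 8 were called in WM164, 1 of 7 in SKMEL28 and 0 of 8 in A375, against 31.8%, 29.9% and 0.843% of all genes called in either direction. The gene called was the coactivator PPARGC1B, which fell by 0.36 in SKMEL28 (adjusted p = 0.00501). PPARGC1A differed widely in level between the lines, at 92.6 ± 5.82 CPM in WM164 GFP, 2.86 ± 0.599 in SKMEL28 GFP and 1.41 ± 0.332 in A375 GFP, and was not called with MAFG in any (adjusted p = 0.244, 0.0943 and 0.997). Of the 72 nuclear subunits of the complexes that also hold mitochondrial subunits, 38 were lower and 1 higher in WM164 (median log2 fold change -0.22), 19 were higher and 12 lower in SKMEL28 (median 0.05), and 0 were called in A375 (median 0.02). Of 78 mitochondrial ribosomal proteins, 5 were higher and 20 lower in WM164, 16 higher and 4 lower in SKMEL28, and 0 called in A375.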

How the data were processed

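RNA-seq was analysed from 2 deposited tables, whole-number counts per gene and TPM. Per the labels and methods, the authors trimmed reads with cutadapt 1.8.1, aligned them to GRCh38 with STAR 2.7.7a and used RSEM 1.3.0, featureCounts and DESeq2. The authors' counts were not normalized, and their TPM were scaled to transcript length and to the same total in every library. Neither the annotation release nor whether counting used strand is given in the sources used here. The labels name a non-stranded library kit, whereas the methods name another kit and strand-specific libraries. Gene positions are from GENCODE 44, whose identifiers matched all 37 genes, and sequences from hg38.

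Counts were tested with edgeR 4.0.16 (quasi-likelihood, TMM, filterByExpr, Benjamini-Hochberg adjustment over all genes tested) in R 4.3.3, per line (6 libraries) or in 1 model of 18 libraries. The balance test used the sum of the 13 protein genes as library size. Shares were compared by exact permutation (scipy 1.17.1). Alternatives used DESeq2 1.42.0, limma 3.58.1 on log2(TPM + 1) and log2(TPM + 0.1), other filters and scalings, a replicate block and leaving out each library. Scripts were tested on simulated data. Depth was 20122172 to 39025042 counts. Between libraries of a group the mean chi-square per gene was 5.90 to 96.7, so no 2 libraries agreed within sampling noise. The highest values were in A375, at 68.7 and 96.7 for MAFG replicate 1 against MAFG replicates 2 and 3. GFP replicate 3 there was at 30.2 and 21.2 against GFP replicates 1 and 2. No pair of WM164 or SKMEL28 libraries exceeded 15.1.

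All 37 genes are covered, most tRNAs only as a group. Named nuclear genes were TFAM, POLRMT, LRPPRC, SLIRP, PPARGC1A and, per line, up to 2 called genes with the smallest adjusted p and separate groups in each of the first 3 lists. Nuclear copies were named above 1000 counts. Members and lists were chosen with earlier results of these data known, and the list of mitochondrial ribosomal proteins was added after seeing the data.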

Additional observations from a re-analysis of the deposited data

Results flagged for a closer look

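The response to MAFG differed between cell lines by a test of the difference itself for 10 results on single genes and 2 on genes relative to the protein gene sum. It also differed for 1 result on the share of counts, by the permutation test, whose p is exact only for no effect in either line. Between WM164 and SKMEL28 the share of counts from the 37 genes differed by -6.46 percentage points. The log2 fold changes differed, WM164 minus SKMEL28, by -0.54 for MT-ND2, -0.29 for MT-CO1, -0.65 for MT-CO2, -0.82 for MT-ATP8, -0.79 for MT-ATP6, -0.60 for MT-ND3, -0.56 for MT-ND4, -0.71 for MT-ND6 and -0.79 for MT-CYB. Between SKMEL28 and A375 the difference was 0.58 for MT-CYB. Relative to the sum of the 13 protein genes, the responses of WM164 and SKMEL28 differed by -0.29 for MT-ATP6 and -0.30 for MT-CYB. All results on MT-CYB share the SKMEL28 libraries.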

How the results depend on the processing

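Each result was recomputed under alternative settings. Those on TPM changed the table, the test and the filter together, and DESeq2 also changed the genes tested. Of the counts and share differences under settings other than leaving out a library, 95 stayed within 1.5 times their value or 1 SD and 19 did not. On the deposited TPM (either pseudocount), WM164 had 1 gene higher and 0 lower and SKMEL28 3 higher, and with log2 ratios of TPM the balance test called 0 lower in WM164, 0 higher in SKMEL28 and 1 lower in SKMEL28. With no count filter, 2 genes were higher in WM164 and 1 lower in A375. With all 18 libraries in 1 model, 5 were lower in WM164. With the geometric mean as reference, 1 was lower in the balance of WM164. DESeq2 on all 18 libraries called 3 protein genes between the responses of SKMEL28 and A375. The share of the 2 rRNA genes alone changed by -0.0548 points in WM164 and 0.0428 in SKMEL28. The cause of these changes was not tested.

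Among the protein and rRNA genes of WM164 and SKMEL28, signs turned only for some that were not called. On log2(TPM + 1) and log2(TPM + 0.1), MT-ND2 (0.090 on both), MT-CO1 (0.049) and MT-RNR2 (0.13) in WM164 and MT-CO1 (-0.015), MT-CO3 (-0.14) and MT-RNR1 (-0.11) in SKMEL28 changed sign. In A375, where no gene was called, 8 of 13 protein genes were positive, against 0 on either TPM scale and 1 to 12 on leaving out a library. Leaving out each library, MT-ND2 in WM164 ranged from -0.186 to 0.018 and MT-RNR2 from -0.123 to 0.010, both positive only without MAFG replicate 2. In SKMEL28, MT-CO3 ranged from -0.011 (without GFP replicate 2) to 0.070, and MT-RNR1 from -0.095 to 0.325, negative without GFP replicate 1, GFP replicate 3 or MAFG replicate 1.

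Leaving out each library in turn gave 0 to 2 genes higher and 7 to 9 lower in WM164, 9 to 13 higher and 0 lower in SKMEL28, and 0 in A375. The balance test gave 2 higher and 0 to 3 lower in WM164, and 1 to 4 higher and 2 lower in SKMEL28. The share difference ranged from -3.18 to -1.76 points in WM164, from 3.42 to 4.44 in SKMEL28 and from -1.05 to 0.743 in A375.

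Same-numbered libraries of the constructs correlated between -0.0397 and 0.0302 in their deviations from the group means, and 3 of 18 libraries correlated best with their own number, so the replicate numbers were not taken to pair the libraries. A fit with the replicate block called 7 protein genes higher in the balance of SKMEL28, 3 in the difference of responses of SKMEL28 and A375 and 1 in that of WM164 and A375, and moved no other count by more than 1.5 times. Most tRNAs had too few counts to test. Standard errors of the rRNAs were 0.13 to 0.15 in SKMEL28 and 0.27 in A375, wider than those of the protein genes, but not in WM164 (0.06 to 0.07).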
